A study of Rattus norvegicus with 13 samples.

Results

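The genes described here encode the nuclear subunits of the respiratory chain and the ATP synthase, measured in cultured rat islets after transfer of the transcription factors Nkx6.1 or Pdx1. A probe was taken as a member if its gene symbol, updated to the current rat name, starts with Nduf, Uqcr, Atp5 or Cox4 to Cox8, or is Sdha, Sdhb, Sdhc or Sdhd. A member also needed at least 2 values in every group. The rule used names and completeness only, and no measured change. It gave 76 probes of 70 genes among 17965 probes of 9800 named genes tested, and all 76 member probes on the array met the minimum. They comprise 35 probes of complex I, 5 of complex II, 3 of complex III, 13 of complex IV, 14 of complex V (the ATP synthase) and 6 of Ndufaf assembly factors. The probes of Atp5pd-ps1, Atp5hl1 and Cox6c-ps1 belong to pseudogenes that resemble their parent genes, so their signal cannot be assigned to one copy. A further probe, counted here under Ndufa13, had the pseudogene name Ndufa13-ps in the platform annotation.

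Islets came from male Sprague-Dawley rats of about 250 g, and each array received RNA of a separate islet pool. About 200 islets per condition were exposed to a recombinant adenovirus for 18 h and kept 60 h longer in medium with 8 mM glucose and 10% serum. All viruses used the CMV promoter, which is active in many cell types and is not restricted to beta cells. AdCMV-bGAL, carrying beta-galactosidase, was the control (5 arrays). AdCMV-Nkx6.1 carried the hamster factor (5 arrays) and AdCMV-Pdx1 the mouse factor (3 arrays). No group without virus was analysed here, so exposure to adenovirus is common to all arrays. Each array set Cy5-labelled islet RNA, after 2 rounds of amplification of 500 ng, against a Cy3-labelled pool of rat RNA. A value is therefore a log2 ratio of islet over reference, 0 means equal signal, and a high value means enrichment over the pool and not abundance.

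Respiration begins with complex I, which oxidises NADH, and complex II, the succinate dehydrogenase shared with the citric acid cycle. Both pass electrons through ubiquinone to complex III, and cytochrome c carries them on to complex IV, which reduces oxygen. Proton pumping by complexes I, III and IV drives the rotary ATP synthase. In beta cells the resulting rise in ATP relative to ADP closes ATP-sensitive potassium channels and leads to insulin release. Most subunits are encoded in the nucleus, and the transcription factors NRF-1, GABP and YY1 are known to act at many of their promoters.

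The islet identity of the RNA was checked on named markers. Ins1 ratios lay between 3.48 and 7.49 and Gcg ratios between 5.29 and 8.24 over the 13 arrays, while Alb, a liver gene, lay between -5.44 and -3.78 on 1 of its probes. Nkx6-1 had ratios of 2.31 to 4.14, but its rat probe need not detect the hamster transgene, and a Pdx1 probe with a symbol was not analysed here, so the transgenes themselves were not checked. The arrays separated by their share of empty values, which was 35.4% to 61.1% on bGAL replicates 1, 2, 3 and 5 and Nkx6.1 replicate 1, and 0.23% to 15.5% on the other 8. Since 4 of the 5 control arrays lie in the first set and all 3 Pdx1 arrays in the second, results are also given with a block for the array set. In these bulk samples, fewer cells of a type and less RNA per cell cannot be told apart.

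Nkx6.1 replicate 2 stood apart from the rest of its group, and this was visible in the respiratory genes. Over the 72 members with a value on every array, its median absolute distance from the mean of the other Nkx6.1 arrays was 0.94, against 0.14 to 0.32 for the other 12 arrays within their groups. It lay more than 1 log2 unit away for 33 of the 72 members, while no other array did so for more than 5. Within the Nkx6.1 group it was the highest array for 30 members (41.7%) and the lowest for 30 (41.7%). Over 9241 complete probes of any gene these shares were 30.1% and 49.8%. Over the same 9241 probes this array had a median distance of 1.005, so a deviation of similar size was present across the whole array. Its members were displaced in both directions, and its median over them, 0.48, lay inside the 0.33 to 0.74 seen on the bGAL arrays. Its median over all complete probes, -0.59, lay below the -0.11 to -0.05 of the bGAL arrays. The members thus did not share the downward shift of that median. Differences that depend on this array are also given without it.

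**Figure D1:**
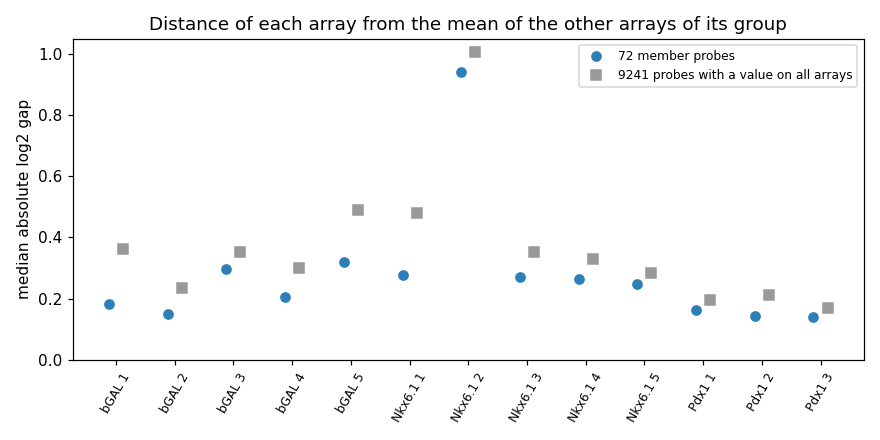
Median absolute log2 distance of each array (x axis) from the mean of the other arrays of its group, over 72 member probes (circles) and over 9241 probes of any gene with a value on all arrays (squares). Nkx6.1 replicate 2 lies at 0.94 for the members, above the 0.14 to 0.32 of the other arrays.

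Promoter windows of 250 bases before to 50 after the annotated start were available for 61 of the 70 member genes in RefSeq (build GRCr8). The NRF-1 motif, searched as GCGCA, any base and then GCGC on either strand, occurred in 15 of the 61 windows (24.6%), against 8.64% of the windows of all 8114 tested genes and 4.71% of all 27457 windows. The GABP letters CCGGAAG, on either strand like all motifs here, occurred in 19 (31.1%), against 15.0% and 9.22%. The YY1 letters AAGATGGC occurred in 10 (16.4%), against 4.71% and 3.44%. At least 1 of the 3 motifs was present in 37 members (60.7%), 24.9% of tested genes and 15.5% of all windows. The homeodomain core TAATTA, of the kind that Nkx6.1 and Pdx1 bind, was found in 0 of 61 member windows, against 3.30% of those of tested genes. These matches describe letters in short windows and no binding was measured.

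Below are 4 of these windows, chosen after the values were seen from the members taken up in the results, to show windows with and without matches. Motif matches are in capitals. Ndufs6 (chr1:31797150-31797449, plus strand) holds an NRF-1 and a YY1 match, Ndufs5 (chr5:141264353-141264652, minus strand) an NRF-1 match, Uqcrc2 (chr1:184598990-184599289, plus strand) 2 GABP matches, and Cox6a2 (chr1:192219667-192219966, minus strand) none of the 3.
Ndufs6: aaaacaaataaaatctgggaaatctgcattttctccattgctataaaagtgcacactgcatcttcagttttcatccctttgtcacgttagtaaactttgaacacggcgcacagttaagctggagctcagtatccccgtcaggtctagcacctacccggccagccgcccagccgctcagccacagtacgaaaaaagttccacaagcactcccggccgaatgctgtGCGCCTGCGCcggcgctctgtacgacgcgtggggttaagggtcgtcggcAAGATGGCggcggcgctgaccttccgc
Ndufs5: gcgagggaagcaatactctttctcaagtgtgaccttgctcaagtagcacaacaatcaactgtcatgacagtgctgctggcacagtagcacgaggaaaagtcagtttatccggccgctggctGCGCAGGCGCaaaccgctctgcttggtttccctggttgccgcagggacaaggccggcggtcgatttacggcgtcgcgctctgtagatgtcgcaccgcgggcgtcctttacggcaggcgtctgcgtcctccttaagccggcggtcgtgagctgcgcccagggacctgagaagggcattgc
Uqcrc2: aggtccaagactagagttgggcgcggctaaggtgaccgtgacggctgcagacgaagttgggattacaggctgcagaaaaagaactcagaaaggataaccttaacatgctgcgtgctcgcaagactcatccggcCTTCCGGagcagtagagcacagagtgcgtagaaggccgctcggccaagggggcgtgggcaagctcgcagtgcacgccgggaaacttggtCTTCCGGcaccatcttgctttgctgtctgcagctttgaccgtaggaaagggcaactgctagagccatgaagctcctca
Cox6a2: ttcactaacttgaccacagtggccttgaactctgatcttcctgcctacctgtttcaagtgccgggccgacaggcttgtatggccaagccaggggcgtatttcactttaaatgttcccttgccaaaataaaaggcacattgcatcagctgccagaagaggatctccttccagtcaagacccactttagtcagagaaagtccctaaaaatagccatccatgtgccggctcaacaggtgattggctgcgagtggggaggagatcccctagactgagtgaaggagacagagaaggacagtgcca

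In control islets, most respiratory genes gave a higher signal than in the reference pool. The bGAL mean was above 0 for 64 of 76 members (84.2%), against 50.1% of all probes tested. On every array with a value, 34 members (44.7%) were above 0 and 3 (3.95%) below 0, where all probes gave 14.1% and 23.4%. The median of the group means was 0.52 in bGAL, 0.55 in Nkx6.1 and 0.54 in Pdx1 islets. By complex, the bGAL median was 0.72 for complex I, 0.49 for complex V, 0.33 for complex IV, 0.28 for complex II and 0.03 for complex III, and -0.03 for the assembly factors. Across arrays of the bGAL group, single members had a median SD of 0.27.

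Within complexes, ratios differed widely. In complex I, the accessory subunit Ndufv3 reached a bGAL mean of 2.84 on 1 of its 2 probes. Ndufs1, the largest core subunit and a carrier of iron-sulfur clusters, had a bGAL mean of -0.43 ± 0.10 (SD, n = 5), and Ndufv1, which binds NADH, one of 0.10 ± 0.28. Ndufs7 and Ndufs8, the core subunits next to ubiquinone, had means of 1.06 ± 0.33 and 0.67 ± 0.47. Ndufaf1, a chaperone of complex I assembly, had the lowest bGAL mean of any member, -1.53 ± 0.72. Cox6a2, the isoform of complex IV subunit 6a typical of heart and skeletal muscle, had the highest, 3.89 ± 0.52. The catalytic beta subunit of the ATP synthase, Atp5f1b, stood at -0.36 ± 0.19 and its alpha partner Atp5f1a at 0.96 ± 0.26. Because each ratio depends on the pool as well as on the islets, these values do not rank the transcripts by abundance.

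**Figure D2:**
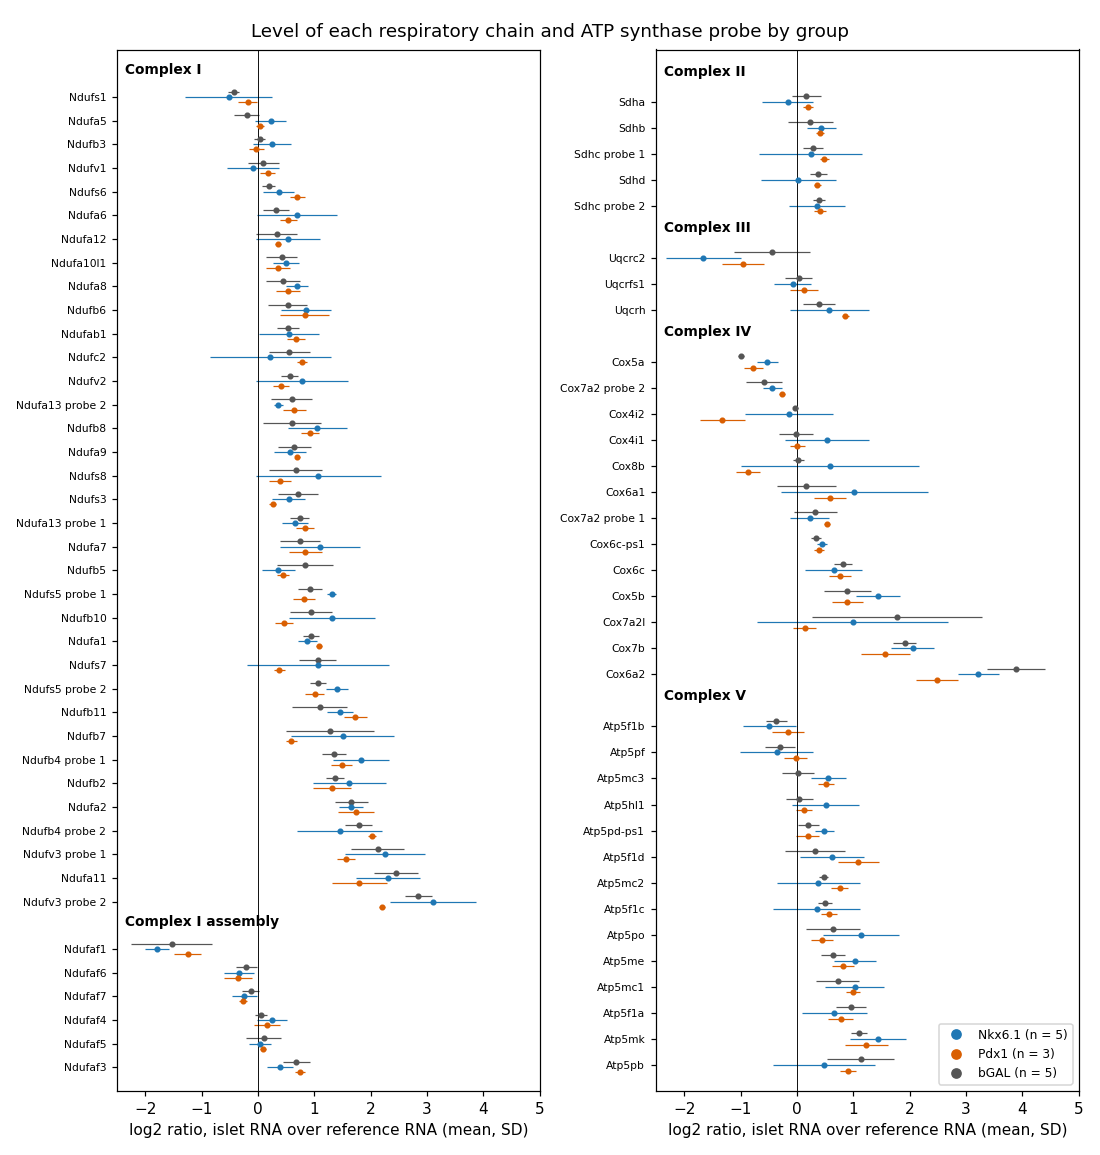
Group mean log2 ratio of islet over reference RNA (x axis) for each of the 76 member probes, by complex, with bars of 1 SD over arrays (bGAL n = 5, Nkx6.1 n = 5, Pdx1 n = 3). Most means lie above 0 in all groups, from -1.79 for Ndufaf1 in Nkx6.1 islets to 3.89 for Cox6a2 in bGAL islets.

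The first comparison asked how Nkx6.1 changed islet transcripts relative to the control virus. No respiratory gene passed limma's test at an adjusted p under 0.05 (0 of 76), where 115 of all 17965 probes (0.64%) did. At an unadjusted p under 0.05 there were 6 members (7.89%), 4 higher and 2 lower, against 14.4% of all probes (5.24% higher and 9.2% lower). This became 10 members without Nkx6.1 replicate 2 (16.3% of all probes) and 1 with a block for the array set (5.96%). Group values did not overlap for 2 members (2.63%), both higher, against 7.73% (3.25% higher and 4.48% lower). The median difference was 0.12 over members and -0.08 over all probes, and 42 of 76 members (55.3%) lay above 0, against 43.7%. Without Nkx6.1 replicate 2 the medians were 0.06 over members and -0.06 over all probes. With a block for the array set they were 0.04 and 0.02, which narrowed the gap between members and all probes from 0.20 to 0.0164. The 95% interval lay within 1 log2 unit of 0, a change of less than 2-fold either way, for 54 members (71.1%) and 37.3% of all probes. Without Nkx6.1 replicate 2 this held for 70 members (92.1%) and 53.9% of all probes. With a block for the array set it held for 44 (57.9%) and 23.2%, and among the 8 arrays with few empty values, which hold 1 control array, for 21 (27.6%) and 15.6%.

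The smallest p belonged to Uqcrc2, a core subunit of complex III. Its ratios on bGAL replicates 1 to 5 were 0.36, -0.40, 0.02, -0.87 and -1.31, and on the Nkx6.1 arrays -1.48, -2.75, -1.01, -1.32 and -1.75. All 5 Nkx6.1 values lay below -1, and of the controls only bGAL replicate 5 reached into their range. The difference was -1.22 ± 0.37 (SE), with an adjusted p of 0.168 (limma). It was -0.99 with a block for the array set (adjusted p 0.851, limma) and -0.95 without Nkx6.1 replicate 2 (adjusted p 0.182, limma). With the block and without that array it was -0.83 (adjusted p 0.499, limma). Cox5a, a nuclear-encoded subunit of complex IV, gave bGAL ratios of -0.98, -0.94, -1.02, -0.94 and -1.08 and Nkx6.1 ratios of -0.44, -0.86, -0.44, -0.39 and -0.48. The groups did not overlap, and replicate 2 lay nearest to the controls. The difference was 0.47 ± 0.16 (SE) with an adjusted p of 0.218 (limma), and an adjusted p of 0.0533 without that array. With a block for the array set it was 0.48 with an adjusted p of 0.814, and with the block and without that array the adjusted p was 0.226 (limma).

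Ndufs5, an accessory subunit of complex I, was measured by 2 probes. On the first, bGAL ratios were 1.07, 0.75, 0.66, 1.07 and 1.09 and Nkx6.1 ratios 1.33, 1.28, 1.42, 1.21 and 1.29, without overlap. The differences were 0.38 and 0.34 on the 2 probes, with an adjusted p of 0.327 (limma) for the first, and 0.64 on both after quantile normalization. Atp5mc3, which encodes subunit c of the proton-driven rotor, had bGAL ratios of 0.49, 0.04, -0.21, -0.10 and -0.12. Its Nkx6.1 ratios were 0.30, 1.03, 0.69, 0.27 and 0.49, and bGAL replicate 1 lay among them. The difference was 0.54 ± 0.21 (SE), with an adjusted p of 0.258 (limma). Ndufa5, named after its values were seen, differed by 0.42 and Cox6a2 by -0.68, both at an unadjusted p under 0.05 only. Ndufa5 came to 0.14 with a block for the array set, and Cox6a2 turned to 0.49 after quantile normalization.

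By complex, the median difference between Nkx6.1 and bGAL islets was 0.20 for complex I, -0.04 for II, -0.10 for III, 0.14 for IV, 0.29 for V and -0.12 for the assembly factors. Without Nkx6.1 replicate 2 these were 0.04, 0.16, 0.03, 0.12, 0.22 and -0.18, so that II and III turned sign and I fell close to 0. The complex IV median was above 0 in all 26 settings run, between 0.08 and 0.41. The medians of the other complexes changed sign in at least 1 of these settings. The 26 include settings that keep each probe's difference by design, such as leaving out a Pdx1 array, so they are not 26 separate checks. Among the catalytic subunits, Ndufs1 differed by -0.09 ± 0.31 (SE), Sdha, the flavoprotein of complex II, by -0.33 ± 0.23, Atp5f1b by -0.13 ± 0.24 and Atp5f1a by -0.29 ± 0.27. None of these passed limma's test. Without Nkx6.1 replicate 2 Ndufs1 turned to 0.24 and Atp5f1b to 0.06, while Sdha came to -0.14 and Atp5f1a to -0.06.

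The second comparison set Pdx1 against the same control arrays, so its differences and those of Nkx6.1 share their controls. Again no member passed limma's threshold (0 of 76), where 98 of all probes (0.546%) did. At an unadjusted p under 0.05 there were 4 members (5.26%), 2 in each direction, against 11.9% of all probes (4.09% higher and 7.78% lower). Without Nkx6.1 replicate 2, which enters the common variance, this became 11 members (19.2% of all probes), and with a block for the array set 1 (4.29%). Group values did not overlap for 9 members (11.8%), 3 higher and 6 lower, against 19.5% (8.02% higher and 11.5% lower). The median difference was 0.06 over members and -0.10 over all probes, with 46 of 76 members (60.5%) above 0, against 42.3%. With a block for the array set the medians were -0.02 over members and 0.02 over all probes. Among the 8 arrays with few empty values they were -0.0691 and 0.0006, so in both settings the members lay below all probes and not above. The 95% interval lay within 1 log2 unit of 0 for 49 members (64.5%) and 31.4% of all probes. With a block for the array set this held for only 34 members (44.7%) and 13.8% of all probes. Without Nkx6.1 replicate 2 it held for 62 (81.6%) and 48.4%.

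In the main fit, Cox6a2 came closest to a call. Its ratios were 3.95, 3.41, 4.74, 3.81 and 3.56 on the bGAL arrays, 3.50, 3.25, 2.72, 3.62 and 3.00 on the Nkx6.1 arrays and 2.81, 2.56 and 2.08 on the Pdx1 arrays. Every Pdx1 value lay below every bGAL value, and the Nkx6.1 values overlapped both. The difference between Pdx1 and bGAL was -1.41 ± 0.32 (SE), a 2.66-fold lower ratio, with an adjusted p of 0.0843 (limma). The adjusted p was 0.0482 without Nkx6.1 replicate 2 and 0.0496 without bGAL replicate 4, and it ranged from 0.0482 to 0.972 over the alternatives. The size depended on the scaling of the arrays: -0.85 when all arrays had one spread and -0.08 after quantile normalization. A block for the array set gave -1.23 (adjusted p 0.930, limma). Among the arrays with few empty values, the 3 Pdx1 arrays differed from the single control array by -1.33. High ratios were lower beyond this gene, and under both factors. Of 1589 complete probes of any gene with a bGAL mean over 1, 84.0% were lower under Pdx1, with a median difference of -0.43. Under Nkx6.1 72.4% were lower, with a median of -0.34. Choosing probes by a high bGAL mean favours a fall, because that mean is then subtracted. For Pdx1 these values were 58.5% and -0.11 when all arrays had one spread, and 60.0% and -0.125 with a block for the array set. After quantile normalization 31.6% were lower, with a median of 0.29. Of the 15 complete members at that level, 10 were lower under Pdx1 without rescaling (66.7%), with a median of -0.22.

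Cox6a2 is known as a muscle isoform, so muscle markers were read beside it. Of the skeletal and heart muscle list, 7 probes were tested. Tnni3, Pln, Tnnt2 and Acta1 had a value on all 13 arrays, and all of these ratios lay below 0. The array medians of these 4 ran from -4.28 to -2.60 in bGAL, -3.42 to -1.37 in Nkx6.1 and -2.91 to -1.58 in Pdx1 islets. Ckm, Myh6 and Mb had values on 9 arrays, of which 2 were controls, with ranges of -1.04 to -0.02, -1.45 to 1.96 and -1.30 to 0.71. Myh7, with 7 values and too few in 1 group to be tested, had a median of 0.24. Between Pdx1 and bGAL, Pln differed by 1.84 (unadjusted p 0.01, adjusted p 0.2495, limma), and of the 7 probes 0 passed the test in either comparison with bGAL. Array medians of the 4 pericyte and smooth-muscle markers with a value on all arrays were 0.24 to 0.71 in bGAL, 1.03 to 2.49 in Nkx6.1 and 0.58 to 0.74 in Pdx1 islets. Of the 9 probes of this list tested, 6 lay above 0 for Nkx6.1 against bGAL (-0.82 to 1.05, median 0.49). For Pdx1 these were 5 probes (-0.60 to 0.35, median 0.07), and 0 passed the test in either comparison. The part of muscle cells or pericytes in the Cox6a2 values was not tested.

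Among the other Pdx1 differences, Ndufs6, an accessory subunit of complex I that carries zinc, had bGAL ratios of 0.12, 0.27, 0.19, 0.32 and 0.05. Its Pdx1 ratios were 0.66, 0.59 and 0.84, all above the controls. The difference was 0.51 ± 0.21 (SE), with an adjusted p of 0.356 (limma), and 0.59 with a block for the array set. Ndufb11, an accessory complex I subunit named after its values were seen, differed by 0.64, and bGAL replicate 5, at 1.93, exceeded every Pdx1 array. Its difference grew to 1.00 when all arrays had one spread and to 1.305 after quantile normalization. In these settings it had the smallest adjusted p of the members (0.0662 and 0.119, limma). Atp5f1d, the delta subunit in the stalk of the ATP synthase, differed by 0.77 ± 0.37 (SE), and 2 of the 5 control arrays (0.74 and 1.04) lay inside the Pdx1 range of 0.72 to 1.44. The Ndufv3 probes, also named after their values were seen, differed by -0.56 and -0.64, at an unadjusted p above 0.05, and turned to 0.09 and 0.47 after quantile normalization.

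**Figure D3:**
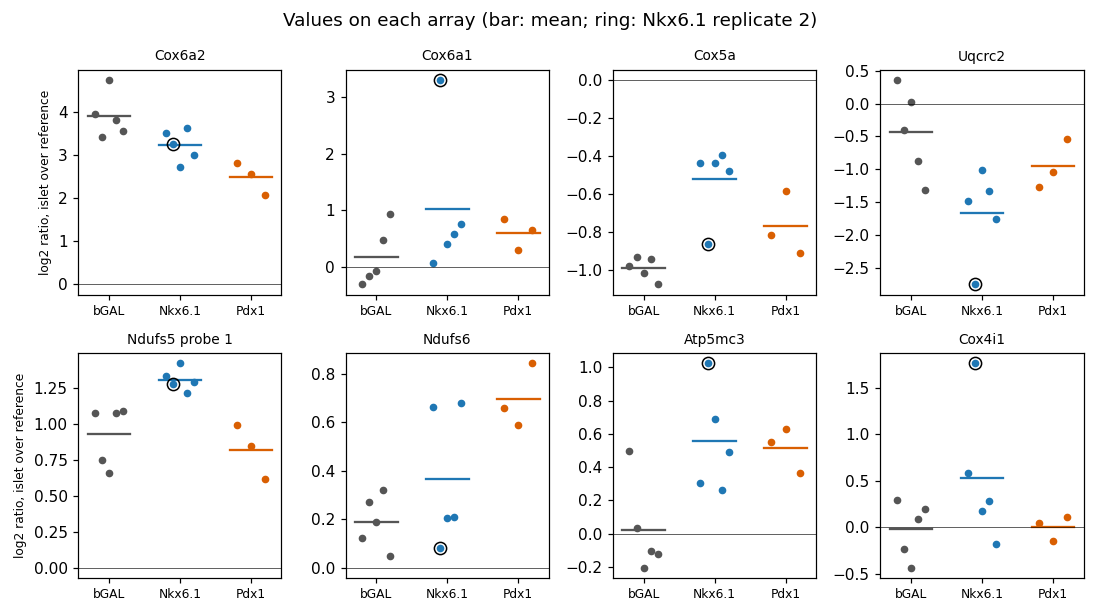
Log2 ratio of islet over reference RNA on each array for 8 members, by group, with bars at group means and a ring around Nkx6.1 replicate 2. Cox6a2 is lower on all 3 Pdx1 arrays (2.08 to 2.81) than on any bGAL array, while for Cox6a1 and Cox4i1 the highest Nkx6.1 value is that of the ringed array (3.31 and 1.77).

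By complex, the median difference between Pdx1 and bGAL islets was 0.06 for complex I, 0.03 for II, 0.10 for III, 0.00 for IV, 0.16 for V and 0.03 for the assembly factors. Of these medians only that of complex V kept its sign in all 26 settings run, between 0.06 and 0.28. Leaving out an Nkx6.1 array or changing the variance model cannot move these differences, so not all 26 are checks of the sign.

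The third comparison set the factors against each other. No member passed the threshold (0 of 76), where 39 of all probes (0.217%) did, and 5 members (6.58%), all higher in Nkx6.1 islets, had an unadjusted p under 0.05, against 6.85% of all probes (3.59% higher and 3.26% lower). Without Nkx6.1 replicate 2 there were 9 members, against 8.54%. Group values did not overlap for 11 members (14.5%), 7 higher and 4 lower, against 12.1% (6.1% higher and 5.98% lower). The 95% interval lay within 1 log2 unit of 0 for 44 members (57.9%) and 35.6% of all probes. Above 0 were 43 members (56.6%), against 52.2%. The median difference was 0.04 over members and 0.02 over all probes, and it turned to -0.05 with one spread and -0.04 after quantile normalization. Among members the smallest p was that of Cox4i2, higher by 1.18 in Nkx6.1 islets (adjusted p 0.621, limma). Its 4 Nkx6.1 values ran from -1.06 to 0.83 and overlapped the Pdx1 range of -1.66 to -0.88. The first Ndufs5 probe was higher by 0.49 ± 0.20 (SE, adjusted p 0.661, limma), and its Pdx1 ratios of 0.99, 0.85 and 0.62 all lay below the Nkx6.1 values. The Ndufv3 probes differed by 0.69 and 0.91, and by 0.42 and 0.57 without Nkx6.1 replicate 2. The complex IV median was 0.48 (0.33 without that array) and stayed above 0 over all 26 settings (0.22 to 0.58). That of complex III was -0.28 and stayed below 0 (-0.48 to -0.07), but it rests on 3 probes. Its value nearest to 0 was that without Nkx6.1 replicate 2. Here too the 26 include settings that keep each probe's difference by design, such as leaving out a bGAL array.

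**Figure D4:**
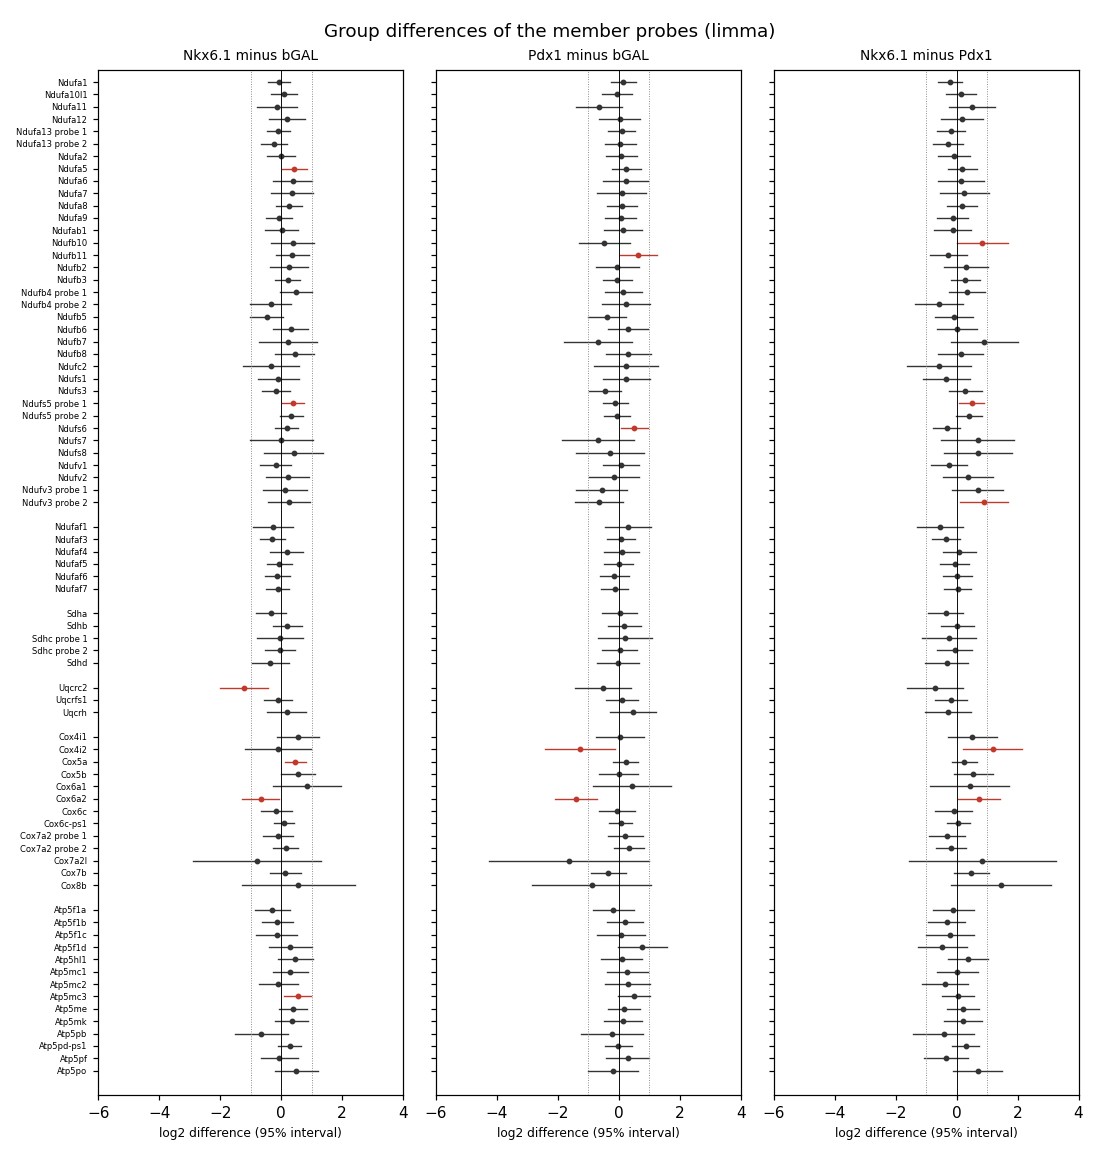
Differences in log2 ratio between groups (points, x axis) with 95% intervals (lines) for the 76 member probes, ordered by complex, in the 3 comparisons. Red marks an unadjusted p under 0.05 (6, 4 and 5 probes), dotted lines mark 1 log2 unit, and no probe passed the adjusted threshold.

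Tissue isoforms of complex IV were examined as pairs. Cox6a1, the widely expressed partner of Cox6a2, had bGAL ratios of -0.32, -0.17, -0.08, 0.48 and 0.94, and Pdx1 ratios of 0.84, 0.29 and 0.65. Its Nkx6.1 ratios were 0.06, 3.31, 0.41, 0.58 and 0.75, so a single array set the group apart. The difference between Nkx6.1 and bGAL was 0.85, and 0.28 without that array. Cox4i1, the common isoform of subunit 4, differed by 0.55 and by 0.24 without that array. Cox4i2, the isoform known for induction by low oxygen, had only 2 control values, -0.001 and -0.06, and was lower in Pdx1 islets (-0.88, -1.43 and -1.66), a difference of -1.29 with an adjusted p of 0.360 (limma). Cox7a2l, a factor of supercomplex assembly, and Cox8b had missing control values too, and their SEs between Pdx1 and bGAL were 1.18 and 0.87.

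Repeated probes gave a limited check within genes, because they read the same RNA on the same arrays. Ndufa13, Ndufs5, Ndufv3 and Sdhc had the same sign on both probes in all 3 comparisons. These are not 3 separate checks, as the third difference follows from the others. For Sdhc the differences between Nkx6.1 and bGAL were -0.036 and -0.035, and 0.36 and 0.16 without Nkx6.1 replicate 2. For Ndufa13 the check is uncertain, because the platform annotation named one of the probes Ndufa13-ps. Cox7a2 differed in sign in 1 comparison and Ndufb4 in 2. For Ndufb4 the difference between Nkx6.1 and bGAL was 0.48 on one probe and -0.34 on the other, and Nkx6.1 replicate 2 gave 2.65 and 0.10 there. Without that array the differences were 0.27 and -0.0035.

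Genes of the same pathway outside the rule, from lists chosen by function, also gave no call in any of the 3 comparisons. The mitochondrial ribosome (67 probes) had median differences of 0.04 for Nkx6.1 and -0.05 for Pdx1 against bGAL. Pyruvate dehydrogenase and the citric acid cycle (17 probes) had -0.11 and -0.03. Electron carriers and dehydrogenases that feed the chain (6 probes) had 0.03 and -0.13. Assembly factors outside the rule (19 probes) had -0.26 and -0.30, with 7 and 4 probes above 0 (36.8% and 21.1%). Carriers, channels and uncoupling proteins (9 probes) had 0.04 and 0.31, with 5 and 8 probes above 0 (55.6% and 88.9%). At an unadjusted p under 0.05, 2 of these were higher under Pdx1 (22.2%, against 4.09% of all probes) and 0 under Nkx6.1. Pdx1 and bGAL values did not overlap for 4, all higher (44.4%, against 8.02%). Regulators of mitochondrial biogenesis and mitochondrial DNA expression (18 probes) had -0.34 and -0.36, with 4 and 5 probes above 0 (22.2% and 27.8%, against 43.7% and 42.3% of all probes). At an unadjusted p under 0.05, 5 probes of this list were lower under Nkx6.1 (27.8%, against 9.2% of all probes) and 1 under Pdx1 (7.78% of all probes). Over its 14 complete probes, the Nkx6.1 array medians ran from -1.19 to -0.24, with the middle one at -0.35. Those in bGAL ran from -0.30 to 0.11, and those in Pdx1, from -0.28 to -0.14, all lay inside the bGAL range. For these lists, values without Nkx6.1 replicate 2 or with a block for the array set are not given here. The medians over all probes tested were -0.08 and -0.10.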

How the data were processed

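RNA was measured on 13 dual-colour rat arrays. The authors deposited log2 ratios of islet (Cy5) over reference (Cy3) signal, a direction that follows from the dyes per the labels; base 2 was inferred from the values. How they corrected background, normalized arrays and chose which spots to leave empty is not given in the sources used here. No spot intensities were used, and with 3 to 5 arrays a group the array number sets how precise a difference can be. The table held 26984 probes, 22 of them controls that were left out, and 15807 with a symbol, of which 3713 were updated through RefSeq names and 60 were not matched. No probe position is reported. Samples were grouped by the virus in the labels, which call the replicates independent.

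limma's model took every probe that had 2 or more values per group. It was run with limma 3.58.1 (R 4.3.3, statmod 1.5.0) as 1 model with 3 groups, two-sided, with Benjamini-Hochberg adjustment over 17965 probes and a threshold of 0.05. The fit was tested on simulated data. Members and lists are described by counts and medians beside all probes, with no test over a list. Python 3.11.15, pandas 2.3.3 and scipy 1.17.1 were used for summaries. Promoter windows came from RefSeq (GRCr8). Named members are those past the threshold, the smallest p of each complex in each comparison, the core subunits and the complex IV isoforms. Other names were chosen after their values were seen. Members and lists were chosen with earlier results of these data known. Alternatives were other scalings, filters, variance models, the array set, the replicate number as a block, leaving out each array, and, added after seeing the data, the array set as a block without Nkx6.1 replicate 2.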

Additional observations from a re-analysis of the deposited data

Results flagged for a closer look

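Among the named members, 11 values stood far from the other 4 arrays of the Nkx6.1 group by Dixon's criterion, of 35 probes examined, and 0 of 32 did so in the bGAL group. Chance marks about 1 in 20 groups. Of the 11, 9 came from Nkx6.1 replicate 2.

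On that array Ndufs7 had a log2 ratio of 3.27 (others 0.19 to 0.80), Ndufs8 3.04 (0.39 to 0.76), Ndufv2 2.21 (0.19 to 0.62), Cox6a1 3.31 (0.05 to 0.75) and Atp5po 2.32 (0.70 to 1.00). It was low for Sdhc at -1.32 (0.41 to 1.07), Sdhd at -1.13 (0.11 to 0.59), Uqcrh at -0.66 (0.78 to 1.01) and Cox5a at -0.86 (-0.48 to -0.39). The remaining values came from Nkx6.1 replicate 1, where Cox7a2 lay at -0.75 (others -0.37 to -0.34) and Cox7a2l at 4.0 (-0.01 to 0.50). Over all 76 members 30 were marked in the Nkx6.1 group, 27 of them by replicate 2, and over all complete probes 28.2%. The cause was not tested.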

How the results depend on the processing

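Of the 76 members, 0 were called in the comparisons of Nkx6.1 with bGAL and with Pdx1 under every alternative run. Comparing Pdx1 with bGAL, leaving out single arrays gave 0 to 1 calls, the 1 being Cox6a2 without Nkx6.1 replicate 2 or without bGAL replicate 4. The median difference over members moved to 0.22 (Nkx6.1) and 0.24 (Pdx1) against bGAL after quantile normalization, and to -0.0691 for Pdx1 among the arrays with few empty values. Leaving out single arrays, the medians ran from 0.04 to 0.14, 0.01 to 0.10 and, for Nkx6.1 against Pdx1, 0.03 to 0.09. Of 11 same-numbered pairs of arrays, 2 had a correlation of their deviations over 0.1. These were bGAL with Nkx6.1 for replicates 1 (0.47) and 4 (0.33). The differently numbered pair of bGAL replicate 3 and Nkx6.1 replicate 1 reached 0.45, so a pairing by number was neither shown nor excluded. With the replicate block the medians were 0.09, 0.09 and 0.05, with 0 members called. Calls over all probes moved more: for Nkx6.1 against bGAL from 115 to 13 with a block for the array set, 0 among the arrays with few empty values, 233 without Nkx6.1 replicate 2 and 595 without bGAL replicate 4. For Pdx1 against bGAL the 98 became 21, 3, 321 and 432 in the same order. For Nkx6.1 against Pdx1 the 39 lay between 14 (without Pdx1 replicate 2) and 96 (quantile normalization). Of 2592 alternative values of named probes, 2561 stayed within the spread between replicates. That count is no measure of robustness, because some alternatives cannot change a difference. Examples are a changed variance model and leaving out an array of the group not compared. The spread was also wide in the Nkx6.1 group, where complete members had a median SD of 0.48, and 0.19 without replicate 2. The causes were not tested.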
